A study of Homo sapiens with 4 samples.

Results

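The parental cultures of SkBr3 and BT474, both lines from breast cancers with HER2 amplification, were compared here before any selection for drug resistance. Of the 4 samples of the study, the 2 parental ones were chosen by their labels, which give no treatment for them, and the other 2 are clones of the same lines grown in rising lapatinib, up to 1 μM, until resistant. Lapatinib inhibits the tyrosine kinases of EGFR and HER2. All cells were grown in DMEM/F12 medium, and total RNA of each sample was hybridized to 1 Agilent 4 × 44 K array. Each culture was thus measured once, and a difference between the lines has no check by replicates. The resistant clones were used only as a further pair of cultures of these lines. Each is a single clone kept under the drug, so that clone, drug and time in culture cannot be told apart from the line in that pair.

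HER2-positive tumors carry extra copies of ERBB2, which encodes the receptor tyrosine kinase HER2, and they fall into hormone receptor-positive and -negative kinds. In luminal mammary cells the estrogen receptor, encoded by ESR1, is a hormone-bound transcription factor that raises its target genes, among them PGR, the progesterone receptor gene. Luminal cells express keratins 8, 18 and 19 and are held together by E-cadherin, the product of CDH1, which binds catenins inside the cell. Vimentin and fibronectin are the usual markers of mesenchymal cells.

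The values are processed signals, which are background-subtracted spot intensities on a linear scale. A difference is the log2 signal of SkBr3 minus that of BT474, after the 75th percentile of each array was subtracted, so a value of 1 is a 2-fold higher signal in SkBr3. Every difference not given as a fold is on this log2 scale, also those between the clones. The 75th percentiles of the 4 arrays ranged from 1115 to 2074, and 66.6% to 74.0% of the 41000 probes were marked well above background. The percentile was 1115 in SkBr3, 2074 in its clone, 1158 in BT474 and 1681 in its clone. Signals quoted below are not scaled, so a somewhat higher signal in a clone than in its parent need not be a higher scaled value. Both parental arrays and the BT474 clone were on 1 slide and the SkBr3 clone was on another, so between the clones slide and line cannot be told apart. Among the spots of probes printed 10 times, the SD of a difference was 0.0994 (median of 193 probes), which covers the spread within an array only. Of the 41000 probes, 22917 reached a signal of 100 in at least 1 parental line and were kept, and 15640 of these carried a gene name, for 11138 genes. Of several kept probes of a gene, the brightest on average in the 2 lines is shown. Where a probe was marked well above background in only 1 of the lines, the fold is a limit. It was taken against the lowest signal well above background on the array of the other line (16.01 in SkBr3 and 15.96 in BT474). Where the probe's own signal there was higher, that signal was used. Some probes not well above background had signals above these values, so the limits are approximate. A signal that was not well above background is said to be at background. A gene whose signal reached 100 in 1 line only was kept through that line, so the filter favored genes that differ.

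At the level of 2-fold, 4505 kept probes (19.7%) were higher in SkBr3 and 4330 (18.9%) were lower. Among the named genes, 2127 (19.1%) were higher and 2124 (19.1%) lower, and the median difference was 0.034. These shares are the background for each gene group below. Between the clones, 2511 of the 4505 higher probes (55.7%) were again at least 2-fold higher in the SkBr3 clone, against 21.1% of all kept probes. Of the 4330 lower probes, 2945 (68.0%) were again at least 2-fold lower, against 24.0% of all. The direction was opposite by at least 2-fold for 315 of the higher probes (6.99%) and 175 of the lower (4.04%).

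The only test that the design allowed was limma over the 4 arrays with line and resistance as terms, which treats each clone as a second array of its line. At a Benjamini-Hochberg adjusted p below 0.05, 1300 of 22917 probes (5.67%) differed between the lines, 513 higher and 787 lower in SkBr3, and the smallest adjusted p was 0.0155. It rests on 1 residual degree of freedom. Fits that left out 1 array had line as the only term and kept 1 array of that line. Their spread thus came only from the parental cells and the clone of the other line. The number of probes called depended strongly on which line that was, and it is not set beside the 1300. The adjusted p-values below are from the fit of all 4 arrays and concern the difference shared by parental cells and clones. The fit used every signal as read, also those at background, so an adjusted p beside a limit does not test that limit.

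The labels were checked first. All 7 luminal epithelial markers (EPCAM, KRT8, KRT18, KRT19, MUC1, GATA3 and FOXA1) were well above background in both lines, as were ERBB2, GRB7 and STARD3, which mark a HER2-positive line. Both hormone receptor markers, ESR1 and PGR, were well above background in BT474 and neither was in SkBr3. Of the 6 fibroblast markers with a probe, COL1A2, COL3A1, DCN, LUM and PDGFRB were at background in both lines, and the sixth, THY1, gave 1654 in SkBr3 and 1275 in BT474. Of the 5 leukocyte markers only PTPRC was at background in both, and the other 4 (CD68, CD14, CD3E and CD79A) were well above background in each line. Of the 4 endothelial markers PECAM1 and KDR were at background in both, while 2 were well above background in SkBr3 and 1 in BT474. Among the 5 of 18 stromal, endothelial and leukocyte markers that were kept, CD68, a lysosomal protein gene of macrophages, had signals of 383 in SkBr3 and 30.9 in BT474, VWF, which encodes von Willebrand factor, had 119 in SkBr3 and 892 in BT474, and the B-cell marker CD79A had 1157 in SkBr3 and 1123 in BT474. The summed signal of all 17 markers of that list with a probe was 3547 in SkBr3 and 3537 in BT474.

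Both steroid receptor genes that define luminal tumors were read in BT474 and not in parental SkBr3. ESR1 had a signal of 11.1 in SkBr3, 31.6 in its clone, 1067 in BT474 and 2851 in its clone. The parental SkBr3 value was not well above background, so ESR1 was at least 64.2-fold lower in SkBr3 than in BT474 (limma adjusted p = 0.0155). PGR had signals of 4.15 in SkBr3, 3.16 in its clone, 5955 in BT474 and 15183 in its clone, which put both SkBr3 cultures at background and PGR at least 358-fold lower in parental SkBr3 (adjusted p = 0.0155).

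Of the 38 hormone and nuclear receptor genes, 27 were kept, 6 of them at least 2-fold higher in SkBr3 and 9 lower, with a median difference of -0.28. Besides ESR1 and PGR, the lower genes included GPER1, a membrane receptor that binds estrogen, at 169.6 in SkBr3 and 2247 in BT474 (difference -3.67). GHR, the growth hormone receptor gene, was at background in SkBr3 and 630.4 in BT474, at least 37.9-fold lower. ESRRG, an orphan receptor gene related to ESR1, was likewise at background in SkBr3 and 153 in BT474. PRLR, the prolactin receptor gene, was lower by 4.27-fold in parental SkBr3 (179.9 in SkBr3 and 798 in BT474), but the clones differed by 0.52 in the other direction. On the other side stood NR3C1, the glucocorticoid receptor gene, with signals of 1964 in SkBr3, 8389 in its clone, 199.6 in BT474 and 695 in its clone. Both SkBr3 cultures lay above both BT474 cultures, by 10.2-fold in the parental pair (adjusted p = 0.0349). FKBP5, a chaperone gene that glucocorticoids and androgens induce, was also higher in SkBr3, at 205 against a background value in BT474, at least 13.3-fold (adjusted p = 0.0206). PPARG, a receptor of fat cell differentiation, was 11.9-fold higher in parental SkBr3, while the clones had a difference of -2.11. NR1D1, a receptor of the circadian clock that lies near ERBB2, was 3.86-fold higher.

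The estrogen-responsive genes were the list with the lowest median of the 19. Of 36 genes 33 were kept, and 23 of these (69.7%) were at least 2-fold lower in SkBr3, 3 were higher and 7 differed less. The median difference was -3.56, and between the clones it was -5.34. Over the alternatives tried the parental median ranged from -3.66 to -1.47. The value of -1.47 came from keeping only probes well above background in both parental lines. In 11 of the 33 the SkBr3 signal was at background, and 13 passed the filter only through BT474. Among the 22 measured in both lines, TFF1, a secreted trefoil peptide gene that estrogen induces, had a signal of 9691 in SkBr3, 3706 in its clone, 273924 in BT474 and 265168 in its clone. It was above background in all 4 cultures and still 27.2-fold lower in parental SkBr3 (adjusted p = 0.0274). Its relative TFF3 had 5071 in SkBr3 and 201458 in BT474, a 38.2-fold difference. SUSD3, a membrane protein gene, was 160.1-fold lower (369.9 in SkBr3, 437 in its clone, 61529.7 in BT474 and 95258 in its clone), a difference of -7.32, and the clones differed by -8.07.

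The genes at background in SkBr3 included GREB1, a cofactor of the estrogen receptor, with 3.54 in SkBr3, 2.99 in its clone, 5970.5 in BT474 and 9108 in its clone. It was at least 359-fold lower by this probe, and its other kept probe gave a difference of -3.27. STC2, a secreted glycoprotein gene, had 4.0 in SkBr3, 643 in its clone, 22584 in BT474 and 56624 in its clone. It was at background in parental SkBr3 only, at least 1357-fold lower there, and its clone difference was smaller, at -6.76. IGFBP4, whose product binds insulin-like growth factors, was at least 211-fold lower, and BCL2, the anti-apoptotic gene, at least 67.4-fold lower (1121 in BT474). CXCL12, a chemokine gene, was at least 161-fold lower, and NPY1R, MAPT, GFRA1, AGR3 and RET were at background in SkBr3 as well. IRS1, a receptor substrate gene of insulin-like growth factor signaling, was 7.47-fold lower and IGF1R, its receptor gene, 7.38-fold lower, both measured in both lines. Over the 4 arrays 14 of the 33 genes passed limma.

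Not every estrogen-responsive gene was low in SkBr3. XBP1, a transcription factor of the secretory pathway, had 176157 in SkBr3 and 221013 in BT474 (difference -0.27). CTSD, the cathepsin D gene, was 6.66-fold higher in parental SkBr3 (7509 in SkBr3 and 1172 in BT474), with 0.13 between the clones. ANXA9 (2.32-fold) and CELSR2 (2.04-fold) were the other 2 higher genes, and both had a difference of the opposite sign between the clones.

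**Figure D1:**
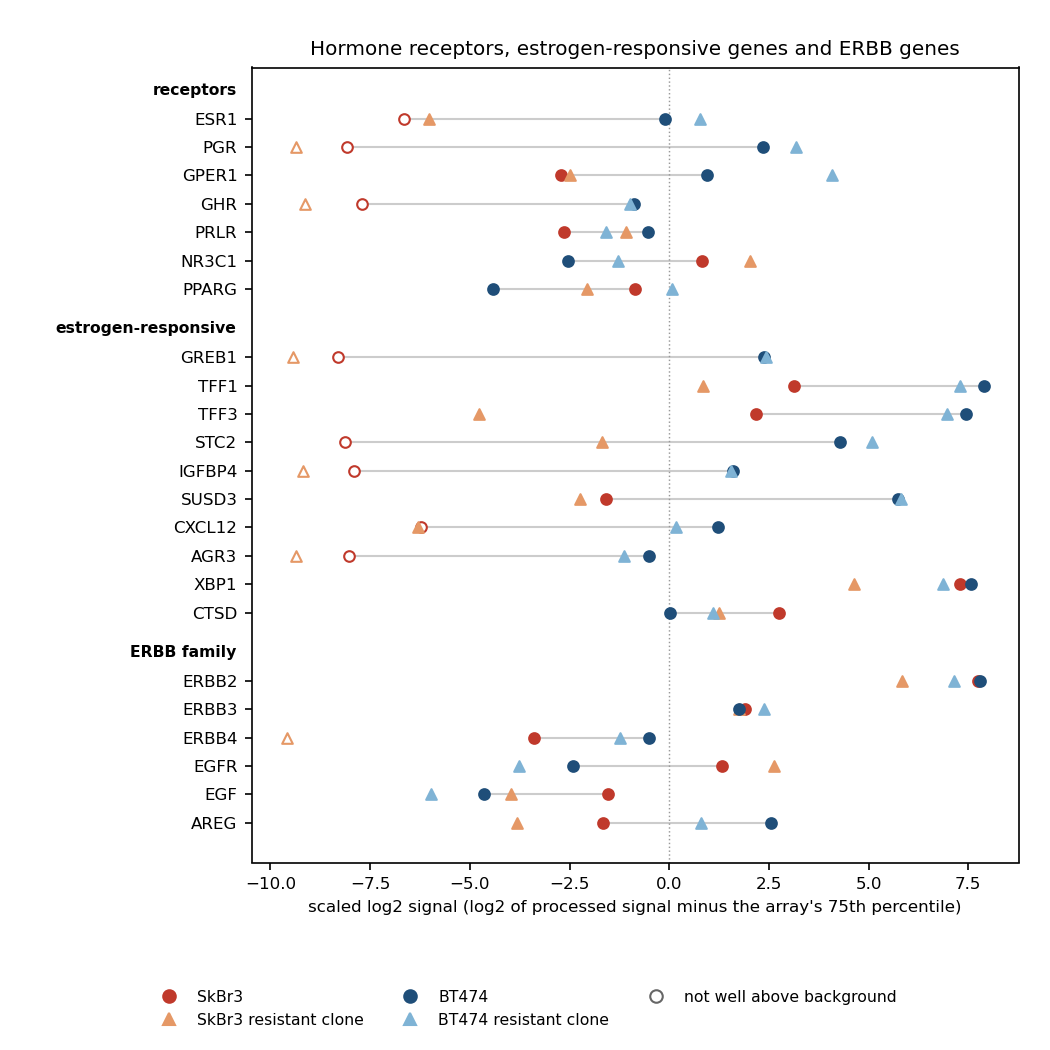
Scaled log2 signal of hormone receptor genes, estrogen-responsive genes and ERBB genes on each of the 4 arrays (1 array a culture, so no error bars). Circles are parental lines and triangles resistant clones, open symbols were not well above background, and gray lines join the parental pair. ESR1, PGR and GREB1 separate both SkBr3 cultures from both BT474 cultures, whereas the parental symbols for ERBB2 and ERBB3 nearly coincide.

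The promoters of these genes are shown because the group moved together, and they were taken from RefSeq (GRCh38.p14, 250 bases before to 50 after the start). Of the 36 genes 27 had an entry. The 4 below are those with a half-site of the estrogen response element, GGTCA on either strand, that differed most, with STC2 at chr5:173328365-173328664, minus strand, PGR at chr11:101129028-101129327, minus strand, CXCL12 at chr10:44385048-44385347, minus strand, and AGR3 at chr7:16881934-16882233, minus strand. Capitals mark the half-site, which reads TGACC where it lies on the other strand.
STC2: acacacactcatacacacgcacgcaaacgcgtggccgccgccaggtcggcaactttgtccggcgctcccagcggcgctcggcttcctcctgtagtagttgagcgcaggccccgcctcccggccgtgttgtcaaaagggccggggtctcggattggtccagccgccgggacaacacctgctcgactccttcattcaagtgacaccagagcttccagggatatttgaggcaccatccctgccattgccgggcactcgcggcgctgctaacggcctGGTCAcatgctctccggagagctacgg
PGR: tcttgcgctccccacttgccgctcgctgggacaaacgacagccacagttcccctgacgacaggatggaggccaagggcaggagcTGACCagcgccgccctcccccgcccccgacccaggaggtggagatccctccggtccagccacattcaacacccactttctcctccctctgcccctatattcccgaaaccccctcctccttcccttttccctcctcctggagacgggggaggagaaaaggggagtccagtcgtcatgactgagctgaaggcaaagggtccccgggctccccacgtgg
CXCL12: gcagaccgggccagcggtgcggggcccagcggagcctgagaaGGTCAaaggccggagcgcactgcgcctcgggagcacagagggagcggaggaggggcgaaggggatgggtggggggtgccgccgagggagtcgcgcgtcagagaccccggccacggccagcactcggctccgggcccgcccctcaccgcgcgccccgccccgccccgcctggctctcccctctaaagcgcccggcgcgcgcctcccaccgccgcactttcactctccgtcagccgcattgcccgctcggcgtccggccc
AGR3: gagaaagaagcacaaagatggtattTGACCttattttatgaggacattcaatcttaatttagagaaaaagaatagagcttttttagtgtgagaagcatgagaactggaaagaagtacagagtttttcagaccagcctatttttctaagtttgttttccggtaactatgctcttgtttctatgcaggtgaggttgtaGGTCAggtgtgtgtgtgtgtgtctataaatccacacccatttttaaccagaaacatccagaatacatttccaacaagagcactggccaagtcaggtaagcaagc
A half-site was found in 12 of the 27 promoters (44.4%), against 10307 of all 27305 promoters of this length (37.7%), and in 7 of the 18 that belong to genes at least 2-fold lower in SkBr3 (38.9%). The full estrogen response element, which holds the half-site on both strands, 3 bases apart, was in 0 of the 27 and in 18 of all promoters. The AP-2 motif GCCNNNGGC was in 10 of the 27 (37.0%, against 23.0% of all), and the E-box CACCTG in 6 (22.2%, against 20.6%). Among the 18 promoters of the lower genes the AP-2 motif was in 9 (50%) and the E-box in 4 (22.2%). These are matches of letters within 300 bases and say nothing of binding.

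Genes of apocrine differentiation and of the response to androgens had no common direction. Of 25 genes 19 were kept, 8 higher and 4 lower, with a median difference of 0.011 whose sign changed with the scaling. SERHL2, a serine hydrolase-like gene, had 71118 in SkBr3, 565 in its clone, 217 in BT474 and 146 in its clone. It was 341-fold higher in parental SkBr3 and far less so in the clones (difference 1.65). TFAP2B, a transcription factor of the AP-2 family, was at 1849 in SkBr3 and at background in BT474, at least 120.3-fold higher. KYNU, an enzyme gene of tryptophan breakdown (10.8-fold), CYP4Z1, a cytochrome gene of mammary tissue (8.67-fold), and AZGP1, a secreted glycoprotein gene of apocrine cells (7.59-fold), were also higher in the parental pair. For KYNU and CYP4Z1 the clones differed in the opposite direction, by -1.46 and -2.22. CLDN8 and CLCA2 were at background in SkBr3 and CRAT, a carnitine acyltransferase gene, was 10.2-fold lower.

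ERBB2 itself did not separate the parental lines. Its signal was 238524 in SkBr3 and 256346 in BT474, a difference of -0.049, and its other kept probe gave 0.56. ERBB3, the kinase-impaired partner of HER2, had 4173 in SkBr3 and 3927 in BT474 (difference 0.14). EGFR, by contrast, had 2767 in SkBr3, 12836 in its clone, 217 in BT474 and 124 in its clone. It was 13.2-fold higher in parental SkBr3, and the difference between the clones was larger, at 6.39 (limma adjusted p = 0.054). EGF, encoding a ligand of EGFR, was 8.53-fold higher. ERBB4 was 7.36-fold lower in SkBr3 (106 in SkBr3 and 812 in BT474). The ligand genes AREG and TGFA went the same way as ERBB4. AREG, encoding amphiregulin, had 354 in SkBr3, 148 in its clone, 6802 in BT474 and 2927 in its clone and was 18.5-fold lower (adjusted p = 0.0224), and TGFA was at background in SkBr3 and 141 in BT474. LRIG1, which encodes an inhibitor of ERBB receptors, was 2.91-fold lower. Of 18 genes of the family 11 were kept, 2 higher and 5 lower. HBEGF and EREG were among those under a signal of 100 in both lines.

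The genes beside ERBB2 on chromosome 17 differed in both directions. Of 29 neighbors 24 were kept, 7 higher and 7 lower (29.2% each), and 3 passed limma over the 4 arrays. GRB7, an adaptor gene next to ERBB2, had 13288 in SkBr3 and 15500.4 in BT474 (difference -0.17), and STARD3, a cholesterol transport gene, 9257 in SkBr3 and 18089.7 in BT474 (difference -0.91). PGAP3 and ORMDL3 were 2.31-fold and 2.78-fold lower in SkBr3. GSDMB, a gasdermin gene, was 11.9-fold higher (49878 in SkBr3, 115804 in its clone, 4362 in BT474 and 8787 in its clone), with both SkBr3 cultures above both BT474 cultures (adjusted p = 0.0321). CDC6, which loads the replicative helicase, was 13.5-fold higher (adjusted p = 0.0372), CDK12, a transcriptional kinase gene, 6.09-fold, and TOP2A, the topoisomerase gene, 2.81-fold. LASP1, encoding an actin-binding protein, had 4146 in SkBr3, 25418 in its clone, 104958 in BT474 and 1039 in its clone. It was 24.4-fold lower in parental SkBr3, but the clones differed by 4.31 on the log2 scale the other way.

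Longer runs of neighboring genes were then compared with a median over 21 consecutive kept genes. The 10670 such windows had a 5th to 95th percentile of -0.93 to 0.90, and 3 of the 4 lowest windows that do not overlap lay on chromosome 17. From TSPOAP1 to PPM1D all 21 genes were at least 2-fold lower in SkBr3, with a median of -3.16, and between the clones the median was -3.32. This run held RPS6KB1, the S6 kinase gene (-2.95), PPM1D, a phosphatase gene that acts on p53 (-3.25), RAD51C, a homologous recombination gene (-2.42), TRIM37 (-2.70), CLTC, the clathrin heavy chain gene (-2.48), and RNF43, an inhibitor of Wnt receptors (-5.56). From CBX1 to PDK2 16 of 21 genes were lower (median -2.75, and -2.79 between the clones), among them the homeobox genes HOXB7 (-2.57) and HOXB13, the ubiquitin ligase adaptor gene SPOP (-3.42), and PHB1 (-2.75). From TBC1D3B to PIP4K2B, just before ERBB2, 19 of 21 genes were lower (median -2.79, and -1.80 between the clones). There MLLT6 differed by -3.76, PCGF2 by -3.70 and PSMB3, a proteasome subunit gene, by -3.09. TBC1D3B and TBC1D3F have near-identical copies, so their probes may read several genes. Over all 666 kept genes of chromosome 17, 136 were higher and 159 lower in SkBr3, with a median of -0.062. The fourth low window lay on chromosome 19 from ITPKC to CEACAM3, where 12 of 21 genes were lower, and its median between the clones was -0.55.

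**Figure D2:**
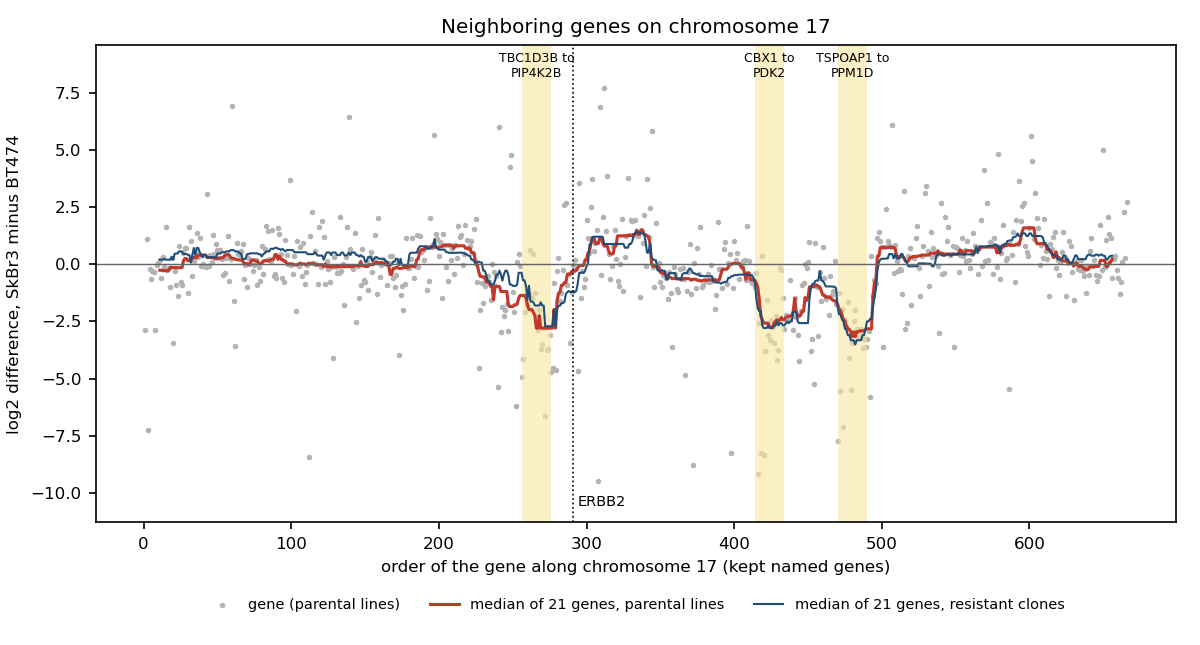
Log2 difference (SkBr3 minus BT474) of each kept named gene of chromosome 17 in its order along the chromosome (gray points), with the median over 21 consecutive genes for the parental lines (red) and the resistant clones (blue). The 3 shaded runs, with medians of -2.79, -2.75 and -3.16 in the parental pair, lie below 0 in both pairs of cultures, and ERBB2 (dotted line) falls near 0 beyond the first of them.

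The 4 windows highest in SkBr3 lay on chromosomes 20, 8 and 10. From PHF20 to RALGAPB on chromosome 20 16 of 21 genes were higher, with a median of 2.32 and of 1.46 between the clones. SRC, the tyrosine kinase gene, differed by 2.16 there, and RPN2, a subunit gene of the oligosaccharyltransferase, by 2.70. On chromosome 8 the run from DSCC1 to ZNF572 had a median of 2.22 (14 of 21 higher), with ATAD2 at 3.10 and DERL1, a gene of endoplasmic reticulum quality control, at 3.32. In the same run DEPTOR, an mTOR inhibitor gene, was lower (-2.78). The run from COPS5 to ZNF704 had a median of 1.75, with TPD52 at 2.18. On chromosome 10 from GRK5 to LHPP the median was 1.61, with FGFR2, a fibroblast growth factor receptor gene, at 4.80. These windows are a description of RNA signals and carry no test.

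The luminal keratins did not separate the lines. KRT8 had 150032 in SkBr3 and 112501 in BT474 (difference 0.47), KRT18 154100.0 in SkBr3 and 171629 in BT474 (-0.10) and KRT19 295035 in SkBr3 and 300114 in BT474 (0.031). EPCAM, the epithelial cell adhesion molecule gene, had 30660.1 in SkBr3 and 29723 in BT474 (0.10). The other 2 kept probes of KRT18 gave 0.61 and 0.62. The differences of KRT19 and EPCAM changed sign under quantile normalization, among other settings, and by the probes shown none of the 4 genes differed by more than 0.52 under any scaling tried. Of 25 luminal and epithelial genes 22 were kept, 6 higher and 2 lower, with a median of 0.62. The higher ones included KRT23, at 497 in SkBr3 and 35.1 in BT474 (14.7-fold), KRT80 (5.86-fold), PROM2, ELF3, an epithelial ETS factor gene, and SPINT1, a protease inhibitor gene. The lower ones were ESRP1, an epithelial splicing regulator gene (4.01-fold), and GRHL2, an epithelial transcription factor gene (2.79-fold).

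Basal and myoepithelial genes were divided between the lines. KRT5, a basal keratin gene, was at background in both. TP63, the basal lineage factor gene, had 17.9 in SkBr3, 432 in its clone, 1125 in BT474 and 1966 in its clone, so it was 60.6-fold lower in parental SkBr3 and less so in the clones (-2.49). CDH3, the P-cadherin gene, had 17.8 in SkBr3, 24.4 in its clone, 2288 in BT474 and 4601 in its clone and was 124-fold lower (adjusted p = 0.0155). ACTA2, the smooth muscle actin gene, ran the other way. It was at 364 in SkBr3 and at background in BT474, at least 23.7-fold higher, and the clones differed by at least 9.20 on the log2 scale. The hair keratin genes KRT81 (15039.8 in SkBr3 and 606 in BT474, 25.8-fold) and KRT83 (16.5-fold) were higher in parental SkBr3. Of the 20 genes 11 were kept, 4 higher and 3 lower.

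Among 34 lineage transcription factor genes 28 were kept, 5 higher and 10 lower in SkBr3, with a median of -0.80. FOXA1, the pioneer factor gene of luminal cells, had 21062 in SkBr3 and 37263 in BT474, a difference of -0.77 that stayed under 2-fold. GATA3, which specifies luminal cells, had 450.0 in SkBr3, 1632 in its clone, 2671 in BT474 and 4654 in its clone. It was above background in every culture and 5.71-fold lower in parental SkBr3 (difference -2.51, adjusted p = 0.0859). SOX11, an embryonic factor gene, was 198-fold lower in the parental pair, and the clones differed by -2.39 on the log2 scale. TBX3, a T-box factor gene of mammary development, was 10.2-fold lower (adjusted p = 0.0392), and ID4, an inhibitor of basic helix-loop-helix factors, 7.14-fold lower. CEBPD, an acute-phase transcription factor gene, was 8.96-fold higher in SkBr3 (adjusted p = 0.0448).

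CDH1 had the largest limit of the adhesion genes listed. The E-cadherin transcript had a signal of 11.9 in SkBr3, 4.66 in its clone, 44709.9 in BT474 and 56836 in its clone. Both SkBr3 cultures were at background and both BT474 cultures were bright, so CDH1 was at least 2687-fold lower in parental SkBr3 (adjusted p = 0.0155). The genes of its cytoplasmic partners did not follow it. CTNNB1, the β-catenin gene, had 3079.7 in SkBr3 and 3407 in BT474 (difference -0.09), CTNNA1, the α-catenin gene, had 33979.8 in SkBr3 and 21490.4 in BT474 (0.72), and JUP, the plakoglobin gene, was 2.38-fold higher in SkBr3. Of 35 cadherin and catenin genes 14 were kept and 21 were under 100 in both lines. The 4 higher genes were CDH24, a cadherin gene (3.25-fold), FAT1, JUP and CELSR2. CELSR3, a gene of the flamingo cadherins, was 8.82-fold lower, next to CDH1 and CDH3.

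The mesenchymal genes gave opposite answers. VIM had 26.4 in SkBr3, 166 in its clone, 19393 in BT474 and 9843 in its clone, so it was 708-fold lower in parental SkBr3 (adjusted p = 0.0331), and by its other kept probe, which was at background in parental SkBr3, at least 964-fold lower. BT474 was thus bright for both CDH1 and VIM, and SkBr3 was near or at background for both. TWIST1, a transcription factor gene of mesenchymal cells, was 115-fold lower (19.3 in SkBr3, 39.8 in its clone, 2303 in BT474 and 16598 in its clone). FN1, the fibronectin gene, had 7582 in SkBr3, 3883 in its clone, 34.3 in BT474 and 33.5 in its clone and was 229.7-fold higher in parental SkBr3 (adjusted p = 0.0157). Its other 2 probes were at background in BT474 and gave differences of at least 2.95 and 6.19. SNAI1, a repressor of CDH1, was 8.02-fold higher (803 in SkBr3, 3901 in its clone, 104 in BT474 and 261 in its clone, adjusted p = 0.0399). ZEB1 and ZEB2, which repress CDH1 too, were under 100 in both lines. CAV1, the caveolin gene, was 41.3-fold and S100A4, a calcium-binding protein gene, 33.0-fold higher. Of 18 genes 10 were kept, 6 higher and 2 lower. Their median of 2.18 fell to 0.0091 when probes that reached 100 only in a clone were let in.

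**Figure D3:**
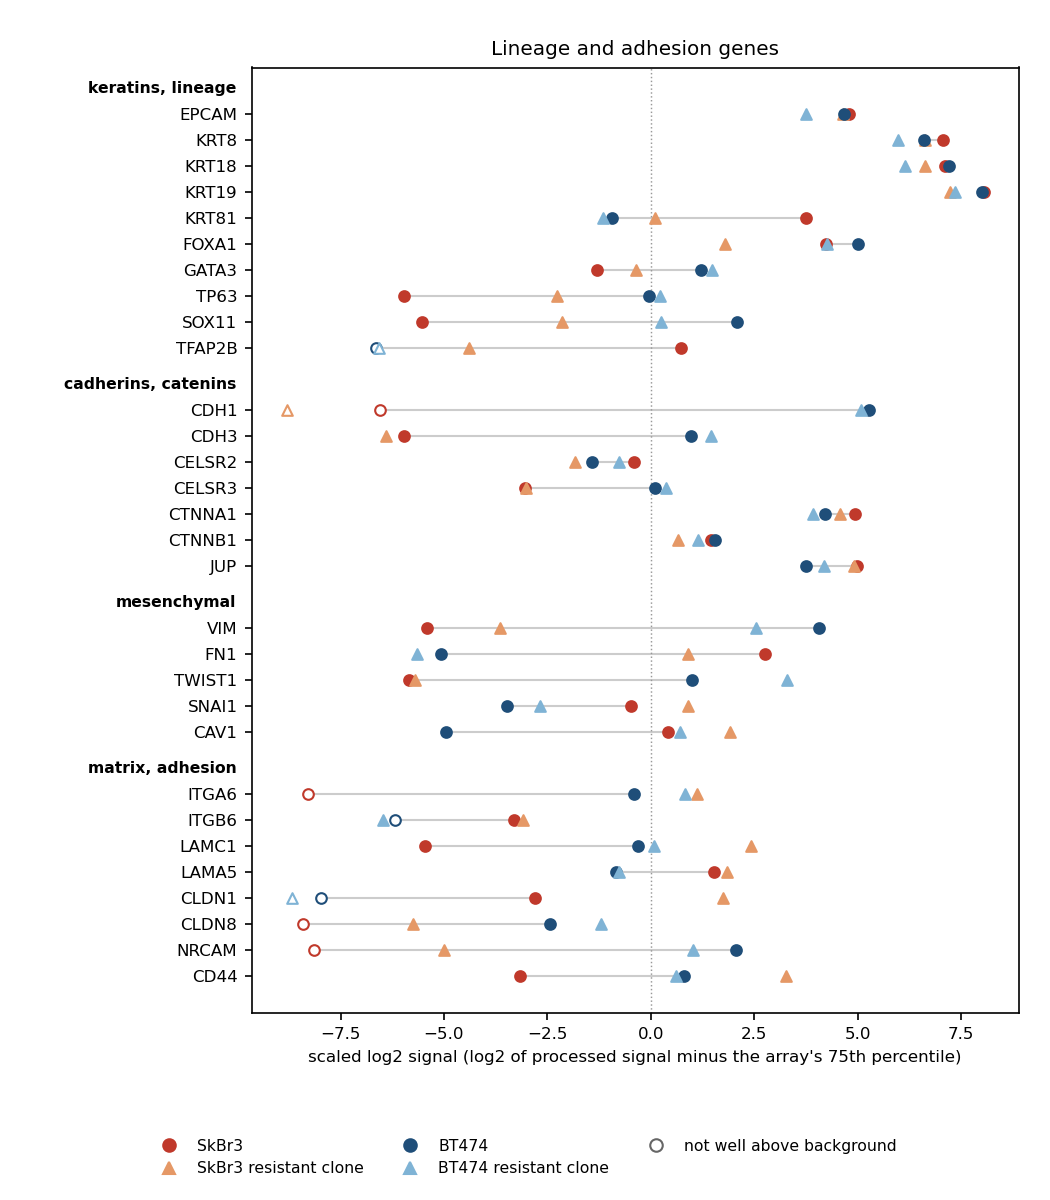
Scaled log2 signal of lineage and adhesion genes on each of the 4 arrays, with symbols as for the receptor genes. For CDH1, VIM and FN1 the SkBr3 cultures lie on one side and the BT474 cultures on the other, whereas for ITGA6, LAMC1 and CD44 the parental SkBr3 array lies apart from its own clone.

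Of 29 claudin and tight junction genes 19 were kept, 4 higher and 1 lower (median 0.56, and 0.084 without the filter). CLDN1, a claudin gene, was at 159.9 in SkBr3 and at background in BT474, at least 10.4-fold higher. CGN, the cingulin gene, was 5.66-fold higher. CLDN8, another claudin, was at least 12.9-fold lower. Of 15 desmosome genes 9 were kept, with PKP3 (3.01-fold) and EVPL (2.20-fold) higher and PKP2 (2.58-fold) lower in SkBr3.

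The receptors and proteins of the basement membrane were next. Of 26 integrin genes 12 were kept, 1 higher and 3 lower. ITGA6, which pairs with β4 integrin in hemidesmosomes, had 3.58 in SkBr3, 4479 in its clone, 869.8 in BT474 and 2986 in its clone. It was at least 52.3-fold lower in parental SkBr3 and differed by 0.28 between the clones. ITGA3 was 2.81-fold and ITGB1 2.11-fold lower, and ITGB6 at least 7.27-fold higher. Of 24 laminin, collagen IV and basement membrane genes 11 were kept, and 8 of these (72.7%) were higher in SkBr3 and 2 lower, with a median of 1.59. LAMA5 (5.11-fold), AGRN, the agrin gene (3.71-fold), and LAMB1 (3.59-fold) were higher. LAMC1, the γ1 laminin chain gene, had 25.3 in SkBr3, 11119.7 in its clone, 935 in BT474 and 1760.4 in its clone, lowest in parental SkBr3 and highest in its clone. None of the 11 passed limma over the 4 arrays, where 5 had an unadjusted p below 0.05, and without the filter the median was 0.57.

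Of 37 other adhesion genes 24 were kept, 4 higher and 9 lower in SkBr3. NRCAM, a neuronal adhesion molecule gene, was at background in SkBr3 and 4835 in BT474, at least 291-fold lower (adjusted p = 0.0449). SDC2, a syndecan gene, was at least 119-fold lower (adjusted p = 0.0155). CD44, the hyaluronan receptor gene, had 124 in SkBr3, 19894 in its clone, 2027 in BT474 and 2585 in its clone. It was 15.8-fold lower in parental SkBr3, yet its brightest value of the 4 was that of the SkBr3 clone. CEACAM6 was 6.75-fold lower. MPZL2 was 15.0-fold higher (adjusted p = 0.0292), CADM1 8.18-fold higher, and L1CAM at least 7.05-fold higher (adjusted p = 0.0212).

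Of 24 secretory and milk genes 12 were kept, and 6 of these were lower and 2 higher in SkBr3, with a median of -1.50. Without the filter the median was -0.25, and it was -0.31 when probes that reached 100 only in a clone were let in. MUCL1, a small breast mucin gene, had 658 in SkBr3, 24.3 in its clone, 105429 in BT474 and 47785 in its clone and was 154-fold lower (adjusted p = 0.0326). The secretoglobin genes SCGB1D1, SCGB1D2, SCGB2A1, SCGB2A2 (mammaglobin) and SCGB3A1 differed by -5.73, -5.51, -3.20, -2.70 and -3.91 on the log2 scale. MUC16, the gene of the CA-125 antigen, was at 440.5 in SkBr3 and at background in BT474, at least 28.7-fold higher (adjusted p = 0.0166).

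Proliferation and reference genes were used to judge the size of these differences. Of 27 proliferation genes 26 were kept, 7 higher and 2 lower, with a median of 0.41, and the differences of the 9 were between -2.12 (CCNE2) and 2.07 (CCND3). All 14 reference genes were kept. Of these 5 were at least 2-fold higher in SkBr3 and none lower, and their median was 0.55. GAPDH differed by 1.03 and ACTB by -0.32, so scaling to GAPDH in place of the percentile would lower each difference by about that much. None of the 14 passed limma over the 4 arrays, and 2 had an unadjusted p below 0.05.

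**Figure D4:**
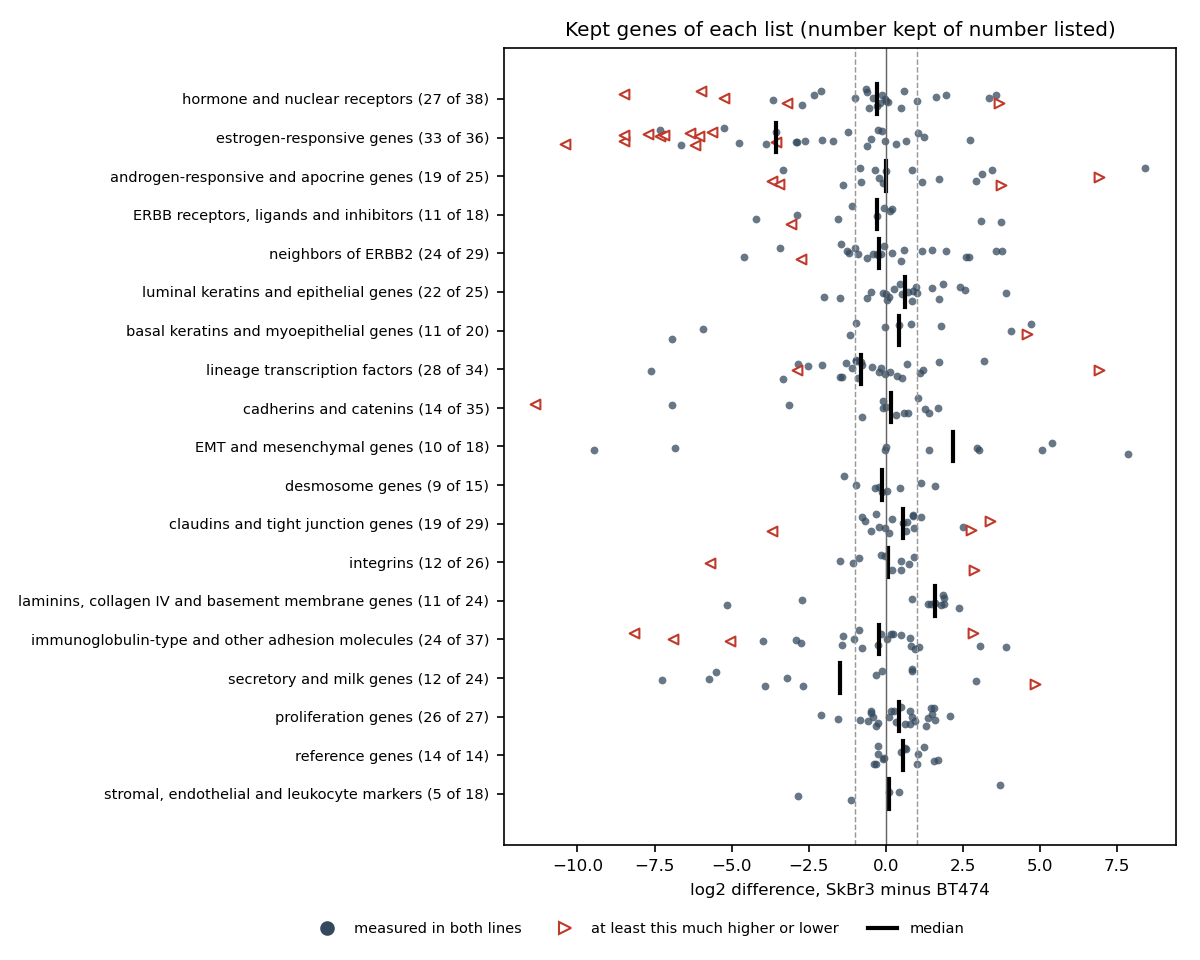
Log2 difference (SkBr3 minus BT474) of every kept gene of the 19 lists, with a black bar at each median and dashed lines at 2-fold. Points were measured in both lines, and open triangles are limits where 1 line was at background. The estrogen-responsive genes have the lowest median (-3.56) and the mesenchymal genes the highest (2.18), with members far out on both sides.

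Over all named genes, the 10 with the largest difference in each direction were taken among probes measured in both lines. H19, an imprinted non-coding RNA gene, led those higher in SkBr3 with 133542 in SkBr3, 65879.9 in its clone, 115 in BT474 and 1697 in its clone. The parental difference was 1212-fold, and that between the clones was smaller, at 4.98 on the log2 scale. Next came the cancer-testis genes MAGEA12 (1194-fold) and MAGEA6 (678-fold), and their near-identical relatives leave it uncertain which copies the probes read. AQP3, an aquaporin gene, had 43889 in SkBr3, 50669 in its clone, 131 in BT474 and 156 in its clone and was 348-fold higher (adjusted p = 0.0155). SERHL2, VGLL1, FN1, ASRGL1, S100A8 and SELENOM completed the 10. S100A8, which forms calprotectin with S100A9, was 217-fold higher (17242 in SkBr3, 81554 in its clone, 82.7 in BT474 and 103 in its clone).

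The largest measured difference in the other direction was that of GPX1, the glutathione peroxidase gene, at 70.3 in SkBr3, 146 in its clone, 93348 in BT474 and 70202 in its clone. Both SkBr3 cultures were low, and the fold was 1277 in the parental pair (adjusted p = 0.0155). VIM, FADS2, CMTM3, ALOX15B, HOXB13, FMOD, KIF1A, SOX11 and SPON2 followed. FADS2, a fatty acid desaturase gene, had 81.4 in SkBr3, 6672 in its clone, 52286 in BT474 and 16388 in its clone, and it was low only in parental SkBr3. SPON2 had 26 in SkBr3, 8655 in its clone, 5347 in BT474 and 3101 in its clone and was likewise low only there, with 1.18 between the clones. FMOD, the fibromodulin gene, was high only in parental BT474 (31.6 in SkBr3, 9.59 in its clone, 9273 in BT474 and 24.8 in its clone).

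Where 1 line was at background, the largest limits in SkBr3 were those of CTAG1A, which has a near-identical copy and encodes the NY-ESO-1 antigen (at least 5453-fold), MAGEA2B, TMCO1, a calcium channel gene of the endoplasmic reticulum (at least 1034-fold), FKBP10, FBLN2, S100A9 (at least 709-fold), PXMP4, CBR1, TRIM4 and B3GNT3. In BT474 they were TCN1, a vitamin B12-binding protein gene, with 3.37 in SkBr3 and 149503 in BT474 (at least 8986-fold), CDH1, IRX4, LGALS3, HOXB13, PDLIM3, STC2, VIM, KLK12 and MAT1A. LGALS3, the galectin-3 gene, was at least 1819-fold lower in SkBr3 (3.92 in SkBr3, 75.8 in its clone, 30256 in BT474 and 69942 in its clone). IRX4, a homeobox gene, was at least 1988-fold lower by this probe, while its other kept probe differed by -2.24.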

How the data were processed

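Total RNA of parental SkBr3 and BT474 cells and of 1 lapatinib-resistant clone of each was labeled and hybridized to Agilent Human Whole Genome arrays, 1 array a sample. The deposited scanner files hold, spot by spot, a processed signal (a linear intensity from which the software subtracted background and spatial trends), median pixel intensities and flags. Per the file headers, Feature Extraction 10.1.1.1 read Cy3 only, which differs from the version, the 2 dyes and the LOWESS step given in the methods. The authors also deposited a table of log2 values with column medians of 0.12, -0.20, 0.11 and -0.046 in the order SkBr3, SkBr3 clone, BT474 and BT474 clone. Between the parental lines its differences were a median of 0.00141 away from those computed here, and how it was scaled and centered is not given in the sources used here.

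The log2 processed signal was averaged over the non-control spots of a probe, and the 75th percentile of each array over its 41000 probes was subtracted. Probes were kept at a signal of at least 100 on at least 1 parental array. A probe was well above background where at least 50% of its spots were so flagged, and no spot was saturated. Accessions were matched to RefSeq (GRCh38.p14) for names and gene order, which named 23680 probes. Genes named are the defining members and up to 4 members in each direction of 19 lists, with further ones named after their values were seen, the 10 with the largest difference and the 10 with the largest limit in each direction, and examples from the windows of neighboring genes. The genes and lists were chosen with earlier results of these data known. The line effect was fitted with limma 3.58.1 in R 4.3.3 over the 4 arrays with resistance as a term and Benjamini-Hochberg adjustment. Other calculations used Python 3.11.15, numpy 2.4.6 and pandas 2.3.3. The scripts were tested on simulated data with known differences. Some members of the lists are counted but not reported singly here. The number of arrays limits the precision, and nothing in the labels says that the cultures were repeated.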

Additional observations from a re-analysis of the deposited data

How the results depend on the processing

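Each count of probes at 2-fold was recomputed under 11 alternatives. It left the range of 1.5 times for the lower probes without the filter (7134) and for both directions at a threshold of 3-fold (2511 higher and 2644 lower). Taking the percentile over probes well above background moved the median difference of the kept probes from 0.056 to -0.048, and the counts to 3982 higher and 4827 lower. With median scaling they were 4724 and 4159. Only a small part of the named genes was followed across the settings. Those of them that differed by at least 2-fold (ESR1, PGR, GATA3, CDH1, VIM, EGFR, TFF1 and GREB1) kept their direction. Their differences were large beside the shifts between settings, so a reversal was hardly possible. This says nothing of the other genes named. The medians of the androgen-responsive, cadherin, integrin, other adhesion and stromal lists changed sign under at least 1 setting. That of the mesenchymal genes ranged from 0.0091 to 2.23. limma called 2129 probes with cell line alone, 1945 without the filter and 1293 after quantile normalization. With slide in place of resistance it called 2720, but this fit cannot check for an effect of slide. The SkBr3 clone was the only array on its slide, so the slide term takes up that array completely. The fit is thus the same as leaving out the SkBr3 clone, which gave the same 2720. Leaving out 1 array in turn, with cell line alone, gave 0 to 3787 probes, with 0 when either BT474 array was left out. The cause was not tested. No paired analysis was possible because each group holds 1 sample and all 4 have the same replicate number, so the numbers pair no samples. The resistance term does set parental cells with parental cells and clone with clone. With 1 array a line, the depth of the design limits every difference to a comparison of these cultures, and signals at background give limits only. Some folds given as measured rest on a signal just above background in 1 line. Examples are MAGEA12 (17.6 in BT474) and CDH3, TP63 and TWIST1 in parental SkBr3, and the size of such folds is uncertain.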
